A study of Mus musculus with 3 samples.

Results

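MicroRNA genes were examined on 3 expression arrays of sorted mouse CD8+ T cells. They were taken by symbol, as every gene whose symbol begins with Mir and a digit or with Mirlet, among probe sets that the platform annotation pairs with 1 symbol. This gave 139 of the 10191 genes with a value. The CD8+ T cells were of 3 kinds, CXCR3+ innate, CXCR3- innate and naive. They came from spleen and lymph nodes, and the donors were C57BL/6 mice with a CXCR3-GFP reporter, which makes cells that express the chemokine receptor CXCR3 fluoresce green. The mice of all 3 groups were naive and kept pathogen-free, and the protocol for RNA calls them CIBER mice. Their age is not given in the sources used here. Sorting used antibodies to CD44, CD62L and CD8, with the gates not given, and innate is the submitters' name for the CD8+ T cells they set apart from naive ones. RNA was taken from about 3 to 5 mice, and each population has 1 array. No spread between mice, no standard error and no p-value can therefore be given, and higher and lower below describe these 3 arrays.

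A microRNA is cut from a hairpin within a longer primary transcript, first in the nucleus by Drosha and Dgcr8 and then, after export by Xpo5, in the cytoplasm by Dicer1. One strand is loaded onto an Argonaute protein and pairs with messenger RNAs mainly through its seed, bases 2 to 8, which lowers their stability and translation. In T cells microRNAs are known to tune the response to antigen, the exit from quiescence and the choice between effector and memory fates. Arrays of this kind are labelled from total RNA, and whether a probe set named for a microRNA reads the hairpin, its primary transcript or the gene around it is not known. Values are log2 RMA values, on which a difference of 1 is 2-fold. In bulk samples fewer expressing cells and less RNA per cell cannot be told apart.

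The mature sequences of the genes on which the results turn are given here so that their seeds can be compared. They come from RefSeq, build GRCm38.p6, which held a mature sequence for 115 of the 139 genes and 184 mature sequences of these genes in all. Seeds stand in capitals. The positions are those of the RefSeq build, and the build behind the array is not given in the sources used here. The first set holds genes that reached 1.5-fold on some pair of arrays, with miR-101a-3p as a relative of miR-101c. The gene for miR-101c lies on the minus strand, with its mature sequence at chr9:3038680-3038698.
miR-101c: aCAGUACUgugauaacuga
miR-101a-3p: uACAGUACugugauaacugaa
miR-5123: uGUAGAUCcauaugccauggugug
miR-3471: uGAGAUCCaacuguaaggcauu
miR-3475-5p: aAAUCAUGuacccccacagagg
miR-3475-3p: uCUGGAGGcacaugguuugaa
miR-1933-3p: cCAGGACCaucagugugacuau

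The 19 bases of miR-101c stand whole within the 21 bases of miR-101a-3p, from base 2 of it, so that the RefSeq seeds of these relatives are offset by 1 base. The mature sequence of Mir5123 lies at chr4:40850057-40850080 on the minus strand, within the gene B4galt1, and that of Mir3471-1 lies at chr4:10845585-10845606 on the minus strand. The mature sequences of Mir3475 lie on the plus strand within Frmpd3, the 5p arm at chrX:140310949-140310970. Among the 139 genes, 11 seeds were shared by several genes. The second set shows families with known roles in lymphocytes or nerve cells.
miR-181c-5p: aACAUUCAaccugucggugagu
miR-181d-5p: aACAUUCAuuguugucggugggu
miR-15a-5p: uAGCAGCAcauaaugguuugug
miR-16-5p: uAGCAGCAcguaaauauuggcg
miR-7a-5p: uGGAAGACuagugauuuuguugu
miR-7b-5p: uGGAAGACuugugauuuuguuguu
miR-142a-3p: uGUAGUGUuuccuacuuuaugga
let-7a-5p: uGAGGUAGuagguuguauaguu

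The arrays were checked against markers of the labelled cells. Of 9 listed CD8+ T cell markers 8 had a value, between 8.31 and 11.81, and Cd44, high on memory-phenotype cells, read 8.30 on the CXCR3+ innate, 7.88 on the CXCR3- innate and 7.24 on the naive array. Cxcr3 itself read 7.97 on the CXCR3+ innate, 7.82 on the CXCR3- innate and 7.57 on the naive array, so the array named for the receptor was the highest, by less than 2-fold. None of 5 B cell and 4 erythroid markers had a value, and 1 of 4 natural killer cell and 2 of 5 myeloid markers did, none above 7.43. A probe set is in the table only where its highest value is at least 7, so a gene with no value was low on all arrays or was not analysed here. The RefSeq table holds 1193 genes that fit the symbol rule, of which 1054 had no value. How many of these the array carries was not counted, so having no value is not by itself a low signal. The 139 genes are those with a probe set of 1 symbol that reached 7 on at least 1 array. Of them 15 were below 7 on at least 1 array, and these had to differ between arrays to enter the table. All 15 were below 7 on the naive array, so an innate array had to be higher. A further 48 probe sets pair a microRNA with another symbol and were not used to name genes.

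No microRNA gene differed by 2-fold between any pair of arrays. The rule of size asked for a log2 difference of at least 1 with the higher value at or above the median of its array over all genes, which was 7.63 on the CXCR3+ innate, 7.63 on the CXCR3- innate and 7.65 on the naive array. For CXCR3+ innate against naive cells, 0 of 139 microRNA genes were higher and 0 were lower by this rule, against 0.137% and 0.0981% of all genes. For CXCR3- innate against naive cells both counts were again 0, against 0.0196% and 0.226% of all genes. For CXCR3+ innate against CXCR3- innate cells they were 0 as well, against 0.147% and 0.00981%. At such background shares a list of 139 genes would hold few calls or none, so the counts of 0 do not set the microRNA genes apart. The widest range of a microRNA gene over the 3 arrays was 0.84, the median range was 0.16, and 55 genes had a range under 0.1. Over the 139 genes the values ran from 6.88 to 13.64 in CXCR3+ innate, 6.73 to 13.27 in CXCR3- innate and 6.52 to 13.39 in naive cells. Values of different probe sets are not compared with each other, since probes differ in brightness.

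At the lower threshold of 1.5-fold, 4 microRNA genes were higher on the CXCR3+ innate than on the naive array, where 0.5% of all genes were, and none was lower, where 0.697% of all genes were. Mir101c read 11.70 on the CXCR3+ innate, 11.08 on the CXCR3- innate and 10.86 on the naive array. Its CXCR3+ innate value stood apart, 1.79-fold above naive and 0.62 on the log2 scale above CXCR3- innate, while CXCR3- innate exceeded naive by 0.22. Mir5123 read 10.27, 9.95 and 9.43 in CXCR3+ innate, CXCR3- innate and naive cells, a step of 0.32 and one of 0.51, and was 1.78-fold higher on the CXCR3+ innate than on the naive array. Its sequence lies within B4galt1, which encodes a galactosyltransferase of the Golgi and differed by only 0.02 in the same comparison. Mir3471-1 read 9.30 on the CXCR3+ innate, 9.09 on the CXCR3- innate and 8.66 on the naive array, so both innate arrays lay above naive, by 0.64 and 0.43. Mir297b, a gene of the Sfmbt2 cluster described further on, read 7.90 on the CXCR3+ innate, 7.51 on the CXCR3- innate and 7.12 on the naive array. These 4 genes had the same order of arrays, with CXCR3+ innate highest and naive lowest. Mir1933 had this order too, at 7.24, 7.05 and 6.52, and a difference of 0.72, but it stayed below the array medians, and with a naive value under 7 it entered the table only through the innate arrays.

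**Figure D1:**
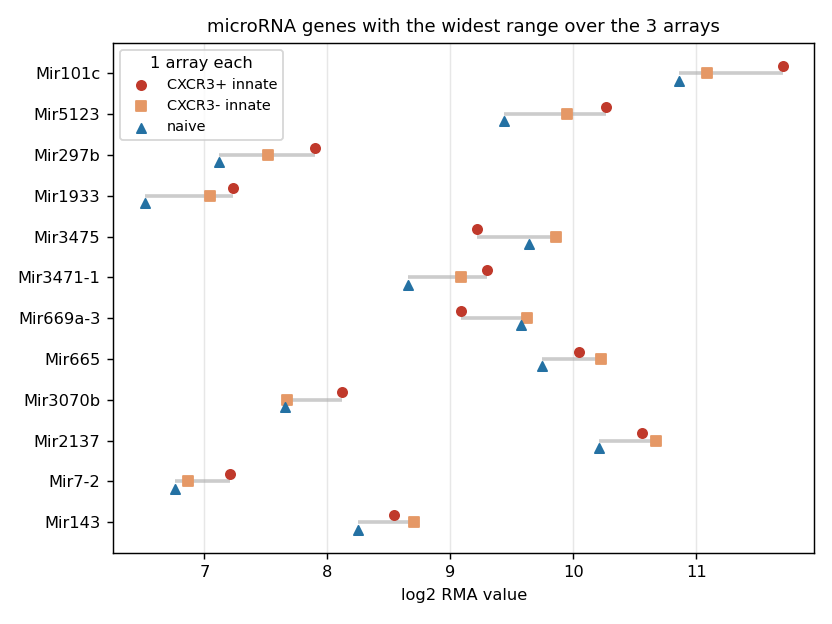
Log2 RMA values (x axis) of the 12 microRNA genes with the widest range over the 3 arrays, 1 gene per row, with a circle for CXCR3+ innate, a square for CXCR3- innate and a triangle for naive cells (1 array each, so no error bars) and a grey line for the range. Mir101c spans 10.86 to 11.70, and in Mir3475 and Mir669a-3 the CXCR3+ innate value is the lowest.

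In CXCR3- innate against naive cells no microRNA gene reached 1.5-fold in either direction, where 0.0981% of all genes were higher and 1.6% were lower. Among the genes at or above 7 on all arrays the largest difference was that of Mir5123, at 0.51. Mir1933 differed by 0.53, but its naive value lies below the floor of 7, so at least 1 innate array had to be higher. Mir665, of the Dlk1-Dio3 cluster, read 10.05 on the CXCR3+ innate, 10.22 on the CXCR3- innate and 9.74 on the naive array. Mir2137 had the same order, at 10.55, 10.67 and 10.21. Mir143, a microRNA known from smooth muscle, read 8.54 on the CXCR3+ innate, 8.70 on the CXCR3- innate and 8.25 on the naive array. In these 3 genes both innate arrays lay above naive and CXCR3- innate was the highest.

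Between the innate populations 1 microRNA gene was at least 1.5-fold higher in CXCR3+ innate cells, Mir101c, and 1 was lower, Mir3475. The shares of all genes were 1% and 0.0785%. Mir3475 read 9.22 on the CXCR3+ innate, 9.86 on the CXCR3- innate and 9.64 on the naive array, so that the CXCR3+ innate array was the low one, by 0.64 against CXCR3- innate. Mir669a-3 had the same shape, at 9.09 on the CXCR3+ innate, 9.62 on the CXCR3- innate and 9.58 on the naive array. Mir3070b was the reverse case among the genes of wide range, at 8.12 on the CXCR3+ innate array against 7.67 on the CXCR3- innate and 7.66 on the naive array, so only the CXCR3+ innate array stood apart.

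Although single differences were small, the microRNA genes leaned to one side in comparisons with the CXCR3- innate array. Against naive cells, 89 of 139 were above 0 in CXCR3- innate cells, 28 were equal and 22 were below. That is 64% above and 15.8% below, against 21.6% and 36.3% of all genes. Equal values were fewer among microRNA genes, at 20.1% against 42.1% of all genes. The median was 0.06 for microRNA genes and 0.00 for all genes, and for microRNA genes it was 0.15 after quantile normalization, 0.11 after cyclic loess and 0.09 after median centring. For all genes it was 0.009, -0.004 and 0.030 in the same order. For CXCR3+ innate against naive cells, 46.8% of microRNA genes were above 0 and 23% below, with 30.2% equal, and 20.7% of all genes were above and 34.2% below. The medians were 0.00 for microRNA genes and for all genes. For CXCR3+ innate against CXCR3- innate cells, 25.9% of microRNA genes were above 0 and 53.2% below, against 28.7% and 22.3% of all genes, with medians of -0.01 and 0.00. These comparisons share arrays, so their counts are not independent of each other.

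**Figure D2:**
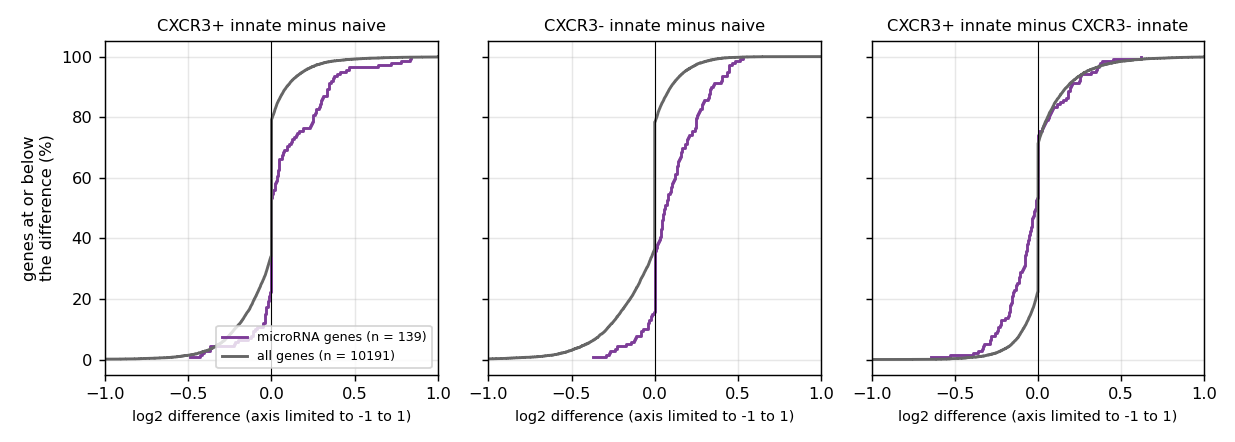
Cumulative share of genes (y axis, %) at or below a log2 difference (x axis, limited to -1 to 1) for 139 microRNA genes in purple and all 10191 genes in grey, with 1 panel for each pair of arrays. The vertical step at 0 is the share of equal values, and in CXCR3- innate minus naive the purple curve lies to the right, with 64% of microRNA genes above 0.

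By position among the 3 arrays, 64 of the 139 microRNA genes were strictly highest on the CXCR3- innate array, which is 46% against 12.4% of all genes. CXCR3+ innate was strictly highest for 30, or 21.6%, against 11.2% of all genes. Highest on the naive array were 11, or 7.91%, against 28.1% of all genes. Naive was strictly lowest for 51 genes, or 36.7%, against 13.6% of all genes. Of these 51, 9 were below 7 on the naive array. Without the genes below 7 on any array the count was 42 of 124, or 33.9%, against 12.2% of all genes so restricted, and scaling raised both shares, to between 65.5% and 74.1% of microRNA genes and between 36.0% and 61.1% of all genes. Without the genes below 7 on any array, 59 of 124 were highest on the CXCR3- innate array, or 47.6%, against 11.4% of all genes so restricted. With a margin of 0.1 the count was 32, or 23%, against 4.34% of all genes. Scaling acts on such counts because equal values are frequent: after cyclic loess 62.6% of microRNA genes and 31.1% of all genes were highest on the CXCR3- innate array, after quantile normalization 69.8% and 49.4%, and after centring on the median 71.2% and 59.3%.

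Other classes of genes on the same arrays were set beside the microRNA genes. Of 541 olfactory and vomeronasal receptor genes, which T cells are not known to use, 28.5% were strictly highest on the CXCR3- innate array. The share was 24.2% of 528 lncRNA genes and 9.8% of 8716 protein-coding genes other than those receptors. Small nucleolar RNA genes, which also encode short RNAs, went the other way, with 5.17% of 58 highest and 77.6% lowest on the CXCR3- innate array, and only 10.8% of microRNA genes lowest there. Naive was strictly lowest for 30.3% of the receptor genes, 22.7% of lncRNA genes, 11.6% of protein-coding genes other than receptors and 5.17% of small nucleolar RNA genes. In CXCR3- innate minus naive 48.1% of the receptor genes were above 0 and 13.5% below, and in CXCR3+ innate minus naive 40.7% and 20.9%. Low naive values were thus not particular to the microRNA genes. The part that the number of probes or the amount of RNA on an array has in these shares was not tested.

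**Figure D3:**
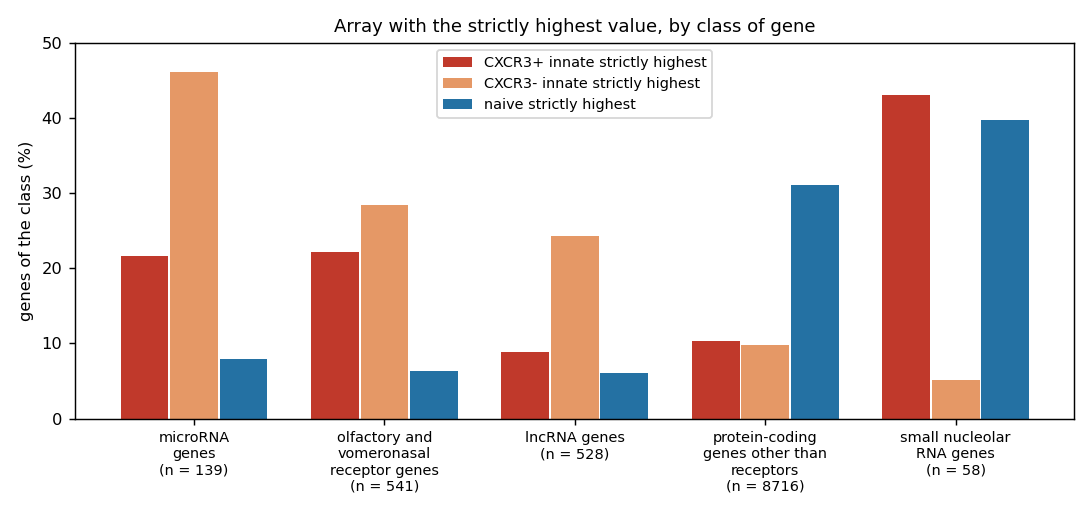
Share of genes (y axis, %) for which 1 array held the strictly highest log2 RMA value, for 5 classes of genes, with red bars for CXCR3+ innate, orange bars for CXCR3- innate and blue bars for naive cells (1 array each). The orange bar is at 46% for microRNA genes and at 5.17% for small nucleolar RNA genes.

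Properties of the hairpins and the mean level were related to the differences as a description across genes. The 108 hairpin sequences found in RefSeq were 59 to 131 bases long, with a median of 86, and held 31.2 to 69.2% G and C, with a median of 53.0%. Across these genes the Spearman correlation of GC content was 0.02 with CXCR3+ innate minus naive, 0.04 with CXCR3- innate minus naive and -0.08 with CXCR3+ innate minus CXCR3- innate. For hairpin length it was 0.06, -0.01 and 0.05 in the same order. For the mean level of the 139 genes it was -0.16, 0.03 and -0.16 in that order. All points of a comparison share the same pair of arrays, and the mean level is made from the same values as the differences.

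MicroRNAs with roles in T cells were mostly without a value. Of 24 listed microRNA genes of T cell activation and effector function 5 had one, and of 48 listed for development and quiescence 9 did. None of these 14 reached 1.5-fold in any comparison, and as between 0.0785% and 1.6% of all genes did in a given comparison and direction, this does not set them apart. Mir31, raised in activated T cells, read 7.57 on the CXCR3+ innate and 7.57 on the CXCR3- innate array against 7.42 on the naive array. Mir9-1 was the member of the first list with the widest range, at 7.93, 7.84 and 7.64 in the same order. Both genes had innate values above naive. Mir23a and Mir27a, neighbours in a cluster that restrains cytotoxic T cell function in mice, read 6.97 and 7.20 in CXCR3+ innate, 7.09 and 7.20 in CXCR3- innate, and 6.97 and 7.20 in naive cells. Mir212 read 7.46 on the CXCR3+ innate, 7.59 on the CXCR3- innate and 7.46 on the naive array. In the first list 4 of 5 were above 0 in CXCR3- innate minus naive and 2 of 5 in CXCR3+ innate minus naive, with none below 0 in either. Of all genes 21.6% and 20.7% were above 0 in these comparisons, and of all microRNA genes with a value 64% and 46.8%. Mir23a entered the table only through the CXCR3- innate array, so its direction there was fixed.

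The microRNAs of T cell development and quiescence held several exactly equal values. Mir142, which gives a microRNA abundant in blood cells, read 8.18 on all 3 arrays, and Mir16-2 read 7.47 on all 3. Equal values to this precision were frequent in the table. On all arrays 19 microRNA genes, or 13.7%, were equal, against 34.6% of all genes. Mir15a, which shares its seed with Mir16-2 and belongs to a family that restrains the cell cycle, read 8.52 on the CXCR3+ innate, 8.60 on the CXCR3- innate and 8.52 on the naive array. Mirlet7a-1, of the let-7 family that restrains cytotoxic differentiation of mouse CD8+ T cells, had values of 7.04, 7.19 and 7.08 on the arrays in that order. Of the 9 genes, 1 was above 0 and 3 were below in CXCR3+ innate minus naive, and 4 were above and 2 below in CXCR3- innate minus naive. The shares of all genes were 20.7% above and 34.2% below in the first comparison, and 21.6% and 36.3% in the second. Those of all microRNA genes with a value were 46.8% and 23% in the first, and 64% and 15.8% in the second.

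The pair Mir181c and Mir181d showed opposite differences. Family members of miR-181 set the sensitivity of the T cell receptor signal in developing T cells, and these 2 genes lie within 10 kb of each other on chromosome 8 and share the seed given above. Mir181c read 9.31 on the CXCR3+ innate, 9.60 on the CXCR3- innate and 9.31 on the naive array, so that CXCR3- innate was the high array by 0.29. Mir181d read 8.16 on the CXCR3+ innate, 7.91 on the CXCR3- innate and 8.14 on the naive array, so that CXCR3- innate was the low array, by 0.25 against CXCR3+ innate. Neither difference has a replicate check.

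Genes with a common seed differed in other families too. The 3 genes of the miR-7 seed, known from brain and endocrine cells, had differences of 0.45 for Mir7-2, 0.05 for Mir7b and 0.00 for Mir7-1 in CXCR3+ innate minus naive. Mir7-2 read 7.21 on the CXCR3+ innate, 6.87 on the CXCR3- innate and 6.76 on the naive array, and so passed the level of 7 on the CXCR3+ innate array alone. The 3 copies of Mir680 differed by -0.10, 0.04 and 0.03 for Mir680-1, Mir680-2 and Mir680-3 in the same comparison. Mir106b and Mir20b, of the miR-17 family that promotes growth of lymphocytes, were each equal on all arrays.

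MicroRNAs known from other tissues were listed as a level to set beside the T cell genes. Of 62 listed genes 13 had a value, and none reached 1.5-fold, as for the T cell lists. They included Mir122 of liver, at 7.32 on the CXCR3+ innate, 7.56 on the CXCR3- innate and 7.32 on the naive array, and Mir375 of pancreatic islets, at 7.61, 7.69 and 7.51 in the same order. Mir194-1, known from liver and intestine, read 8.50 on the CXCR3+ innate, 8.46 on the CXCR3- innate and 8.27 on the naive array. In CXCR3- innate minus naive, 9 of 13 were above 0 and 2 below, with a median of 0.10, where 21.6% of all genes and 64% of all microRNA genes with a value were above 0. The median was 0.13 for the 5 activation genes and 0.00 for the 9 quiescence genes, so the T cell lists did not stand clear of this list. The lists are not fully distinct, since Mir9-1 of the activation list and Mir9-3 of this list give the same mature sequences. The 13 genes also hold Mir449b, at 12.72 on the CXCR3+ innate, 12.78 on the CXCR3- innate and 12.73 on the naive array, a microRNA of ciliated epithelium.

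The 10 microRNA genes of highest mean level included Mir101c, which had the widest range of all, and Mir467e, described below with its cluster. Mir5099 read 13.64 on the CXCR3+ innate, 13.27 on the CXCR3- innate and 13.39 on the naive array, with CXCR3+ innate highest by 0.37 over CXCR3- innate. Its difference of -0.12 between CXCR3- innate and naive was 0.00 after quantile normalization and 0.04 after cyclic loess. Mir680-2 read 11.98, 11.79 and 11.94, and Mir761 read 11.76, 11.93 and 11.75, in CXCR3+ innate, CXCR3- innate and naive cells. Mir1195 read 11.38, 11.58 and 11.39 and Mir1956 read 10.96, 11.09 and 10.82 in that order. CXCR3- innate was highest in Mir761, Mir1195 and Mir1956 and lowest in Mir5099 and Mir680-2.

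The annotation places 14 of the genes between Dlk1 and Dio3 on chromosome 12, an imprinted region whose microRNAs are expressed from the maternal chromosome, and the RefSeq table holds 61 microRNA genes there. In CXCR3- innate minus naive, 11 were above 0, 2 were equal and 1 was below, with a median of 0.04 and a range of -0.07 to 0.48. In CXCR3+ innate minus naive, 9 were above 0 and 3 below, with a range of -0.14 to 0.47. Above 0 in these comparisons were 21.6% and 20.7% of all genes, and 64% and 46.8% of all microRNA genes with a value. The genes did not share 1 order of arrays. Mir494 read 7.87 on the CXCR3+ innate, 7.96 on the CXCR3- innate and 7.56 on the naive array, with both innate arrays high. Mir329 read 8.82 on the CXCR3+ innate, 9.20 on the CXCR3- innate and 8.96 on the naive array, with CXCR3+ innate low. Mir679 read 7.82, 8.08 and 7.82 in that order, with CXCR3- innate alone high.

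A further 10 genes lie inside Sfmbt2 on chromosome 2, in an intronic cluster of rodents that is known from placenta and stem cells, and RefSeq holds 71 microRNA genes there. Copies of the cluster are near identical, so probe sets named for one may read others, and single genes of it are uncertain. Of the 7 probe sets named Mir466b-2, 6 held the same values, 7.71 on the CXCR3+ innate, 7.87 on the CXCR3- innate and 8.19 on the naive array. Averaged over the 7 probe sets Mir466b-2 read 7.85, 8.01 and 8.28, with naive the highest array. In Mir297b naive was the lowest, as given above. Mir467e read 11.60 on the CXCR3+ innate, 11.63 on the CXCR3- innate and 11.22 on the naive array, with both innate arrays high, whereas Mir466h varied only between 11.53 and 11.60. In CXCR3- innate minus naive 9 of the 10 were above 0 and 1 was below, and 8 of 10 were strictly highest on the CXCR3- innate array. The shares were 21.6% and 12.4% of all genes, and 64% and 46% of microRNA genes. Mir669g counts in both only through 1 of its 5 probe sets, at 6.79 on the CXCR3+ innate, 7.10 on the CXCR3- innate and 6.85 on the naive array. That probe set entered the table through the CXCR3- innate array alone, so its direction was fixed. The other probe sets of Mir669g were equal on the CXCR3- innate and naive arrays and highest on the CXCR3+ innate array. In CXCR3+ innate minus naive 5 were above 0, 1 was equal and 4 were below, with a median of 0.00.

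**Figure D4:**
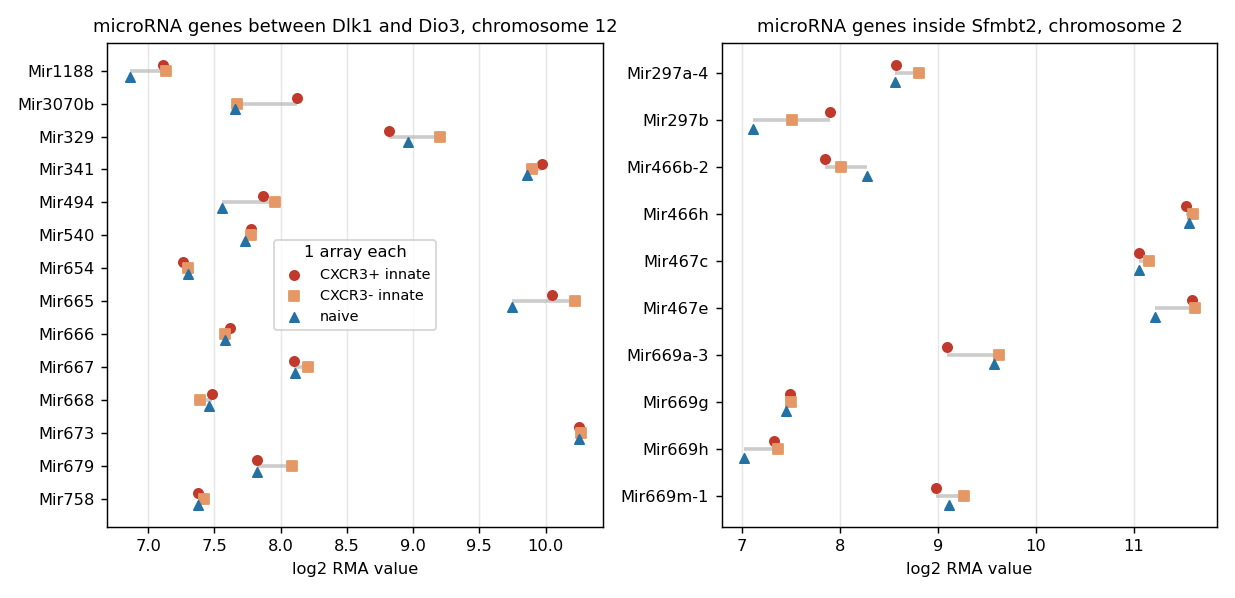
Log2 RMA values (x axis) of the 14 microRNA genes between Dlk1 and Dio3 (left) and the 10 inside Sfmbt2 (right), 1 gene per row, with a circle for CXCR3+ innate, a square for CXCR3- innate and a triangle for naive cells (1 array each). In both clusters genes differ in their order of arrays. Inside Sfmbt2, naive is lowest in Mir297b, at 7.12, and highest in Mir466b-2, at 8.28. Between Dlk1 and Dio3, naive is lowest in Mir494, at 7.56, and CXCR3+ innate is lowest in Mir329, at 8.82.

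Many microRNA genes lie inside other genes and can share their transcript. By the RefSeq intervals, 91 of the 139 lie inside a protein-coding or lncRNA gene, and for 39 of them that gene had a value. In 31 pairs the strand was the same, in 2 it was opposite and in 6 it was not known. Among the 31 pairs on the same strand, in CXCR3+ innate minus naive 9 differed in the same direction, 6 in opposite directions and 16 had an equal value on at least one side. The counts were 7, 10 and 14 in CXCR3- innate minus naive and 6, 7 and 18 between the innate arrays.

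Mir3109 read 7.12 on the CXCR3+ innate, 7.10 on the CXCR3- innate and 6.78 on the naive array, and Anxa2, which encodes a membrane-binding annexin, read 7.53, 7.06 and 6.79 in the same order. Both were below 7 on the naive array, so in each at least 1 innate array had to be higher, and that filter favoured their shared direction. Mir5125, inside Srrm2, which encodes a protein of the spliceosome, read 10.89 on the CXCR3+ innate, 10.73 on the CXCR3- innate and 11.10 on the naive array, and Srrm2 read 11.03, 11.14 and 11.46. Both were highest in naive cells. Mir3058 lies inside Nudt4, which encodes a phosphatase of inositol polyphosphates. In CXCR3+ innate minus naive both were above 0, Mir3058 by 0.09 and Nudt4 by 0.50. In CXCR3- innate minus naive their signs were opposite, at 0.14 for Mir3058 and -0.12 for Nudt4. These pairs were chosen after their values were seen.

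**Figure D5:**
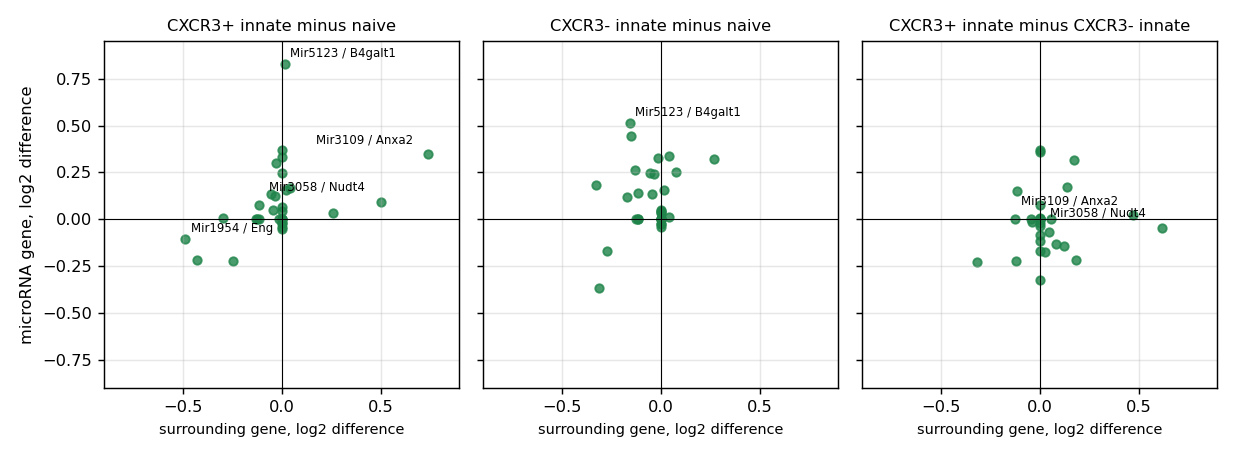
Log2 difference of a microRNA gene (y axis) against that of the gene around it on the same strand (x axis) for 31 pairs, in 3 panels for the 3 pairs of arrays, with 1 point per pair (1 array per population). Mir5123 stands at 0.83 while B4galt1 is at 0.02, and Mir3109 and Anxa2 are both above 0 in CXCR3+ innate minus naive, a sign that the floor of 7 favoured because both lie below it on the naive array.

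A separate list of 35 genes known to carry microRNAs had 18 with a value, whether or not the microRNA itself had one. In CXCR3- innate minus naive 1 was above 0 and 12 were below, with a median of -0.12, and in CXCR3+ innate minus naive 2 were above and 12 below, with a median of -0.04. Of all genes 36.3% and 34.2% were below 0 in these comparisons. Srebf2, a regulator of cholesterol synthesis that carries Mir33, read 8.84 on the CXCR3+ innate, 9.01 on the CXCR3- innate and 9.48 on the naive array. Evl, a regulator of actin that carries Mir342, read 10.10, 9.88 and 10.22 in the same order. Pde2a, a phosphodiesterase that carries Mir139, was the member of this list with the largest positive difference, at 9.85 on the CXCR3+ innate, 9.40 on the CXCR3- innate and 9.39 on the naive array.

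Genes of the microRNA pathway were read last, from a list of 49 of which 36 had a value. None reached 2-fold. In CXCR3- innate minus naive, 0 were above 0, 9 were equal and 27 were below, and in CXCR3+ innate minus naive 2 were above, 10 equal and 24 below. Of protein-coding genes other than the receptors, 39.6% and 36.2% were below 0 in these comparisons. The medians of the list were -0.08 and -0.08, and 0.00 between the innate arrays. Drosha, the nuclear nuclease, read 7.33 on all arrays. Dicer1, the cytoplasmic nuclease, read 7.67 on the CXCR3+ innate, 7.83 on the CXCR3- innate and 7.91 on the naive array, and Ago2, the Argonaute protein that can cut its target, read 9.01, 9.01 and 9.26. Both were highest in naive cells.

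The pathway gene with the widest range was Ran, the GTPase that drives nuclear export, at 6.99 on the CXCR3+ innate, 6.64 on the CXCR3- innate and 7.30 on the naive array. Ddx5, a helicase that works with Drosha, read 10.46 on the CXCR3+ innate, 10.43 on the CXCR3- innate and 10.96 on the naive array. Smad4, which carries growth factor signals and is listed because SMAD proteins act on some primary transcripts, read 9.43, 9.68 and 9.88 in that order. The splicing factor Srsf3 read 8.97 on the CXCR3+ innate, 8.67 on the CXCR3- innate and 9.08 on the naive array. The decay factors Pan3 and Ddx6 were lower by 0.30 and 0.23 in CXCR3+ innate than in naive cells, and by 0.33 and 0.32 in CXCR3- innate than in naive cells. In each of these 6 genes naive was the highest array, which for Ran was fixed by the floor of 7, since its innate values lie below it.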

How the data were processed

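The authors deposited log2 expression values for 12417 probe sets on each of 3 arrays. The submitters' processing notes name RMA and Affymetrix Expression Console and give no version. RMA corrects background, gives the arrays 1 common distribution and combines the probes of a set. The lowest of the highest values per probe set was 7.00002. Probe sets with 1 symbol (10576) were averaged by gene, which gave 10191 genes, and all 139 microRNA genes were matched to RefSeq (GRCm38.p6) by Entrez ID. The members and lists were chosen with earlier results of these data known. Differences were read by size alone. Simulated data with an assumed noise level served only to check that this rule was computed as stated, and they tell nothing of the spread in these arrays. Named were the 12 genes with the widest range, the 10 with the highest mean, listed genes and up to 6 pathway or carrier genes. Alternatives were other thresholds and dimness filters, quantile normalization, cyclic loess, median centring, a linear offset of 16 and other uses of probe sets. The number of arrays limits the precision. Cyclic loess was run with limma 3.58.1 under R 4.3.3, and all else with pandas 2.3.3 and numpy 2.4.6 under Python 3.11.15.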

Additional observations from a re-analysis of the deposited data

How the results depend on the processing

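No paired analysis was possible because each population has 1 array. The counts of microRNA genes at least 2-fold higher or lower were 0 in every comparison without a filter on dim genes, with a filter at the 75th percentile, at 3-fold, after quantile normalization, cyclic loess or median centring, with a linear offset of 16, and with other uses of probe sets. At 1.5-fold 4 genes were higher on the CXCR3+ innate than on the naive array, and 1 was higher and 1 lower in CXCR3+ innate than in CXCR3- innate cells, since that threshold is lower by construction. The median of CXCR3+ innate minus naive, 0.00 as deposited, was 0.0549 after quantile normalization, 0.0300 after cyclic loess and 0.0173 after median centring. For all genes it was 0.0036, -0.0015 and 0.0173 in that order, so the value after centring is the shift given to every gene. The count of genes highest on the CXCR3- innate array was 64 as deposited, 97 after quantile normalization, 99 after median centring and 32 with a margin of 0.1, the alternatives to this count having been chosen after seeing the data. The count lowest on the naive array, likewise, was 51 as deposited, 99 after quantile normalization, 91 after cyclic loess and 103 after median centring. Of 252 recomputed differences of the 21 genes named by range or mean, 37 moved by 0.1 or more. Where the deposited difference was at least 0.1 in size, 2 lost their sign, both of Mir5099 in CXCR3- innate minus naive. Smaller differences changed sign too. That of Mir449b in CXCR3+ innate minus naive went from -0.01 to 0.12 after quantile normalization.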
